A study of Mus musculus with 11 samples.

Results

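The chromatin of embryonic day 13 mouse esophagus was compared with that of esophageal cells that carry SmoM2, an oncogenic form of the Hedgehog pathway protein Smoothened. Of the 11 libraries of the series, 5 entered the comparison. The Embryo group held 2 libraries from esophagus of Krt8YFP embryos, with cells sorted on YFP, the fluorescent reporter tied in that line to keratin 8; no strain is given in the labels. The SmoM2 group held 3 libraries of Krt5-SmoM2 mice of the CD1 strain, in which cells were sorted for high EpCAM, an epithelial adhesion protein. In these mice the transgene acts in cells that use Krt5, a keratin of basal epithelial cells. Another 6 libraries are shown beside them. They are 3 of wild-type CD1 mice sorted for low EpCAM (WT) and 3 of Krt5-SmoM2-Sox9fl/fl mice sorted for high EpCAM, with no strain given (SmoM2-Sox9cKO). The labels state neither the age of the 9 libraries that are not embryonic, called adult here, nor when or how SmoM2 was switched on. In each list the 14000 intervals with the highest −log10 p-value, a measure of how far the signal stands above its local background, were kept, and overlapping intervals of the 5 lists were merged into 26109 regions. A region was counted as open in a library where one of these intervals overlapped it by at least 1 bp. Regions open in 2 of 2 Embryo and 0 of 3 SmoM2 libraries numbered 2485 (9.52%) and are called Embryo-only. Regions open in 0 of 2 Embryo and 3 of 3 SmoM2 libraries numbered 3274 (12.5%) and are called SmoM2-only. Together they were 5759 of the 26109 regions, and 5552 (21.3%) were shared by all 5 libraries.

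In ATAC-seq a transposase cuts and tags DNA that is not wrapped tightly around nucleosomes, so an interval marks accessible chromatin, most often a promoter or an enhancer. Hedgehog ligands such as Shh relieve the receptor Ptch1's block on Smoothened, and Smoothened then activates the Gli transcription factors, of which Gli1, Ptch1 and Hhip are classical targets. SmoM2 is an activated Smoothened that signals without ligand. The early esophagus is a simple columnar epithelium derived from foregut endoderm, marked by Krt8 and Krt18, and it matures into a stratified squamous epithelium with a basal layer that depends on Trp63 and Sox2.

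The promoters below give examples of sequence from both sets. They were picked after their values were seen, from listed genes whose start site lay inside a region of either set. Sox11 (a SoxC factor of embryonic progenitors), Foxa2 (a pioneer factor of endoderm), Klf4 (a factor of epithelial differentiation) and Cldn3 (a tight junction claudin) had an Embryo-only region there. Sprr1a (a cornified envelope precursor) and Egfr (the EGF receptor) had a SmoM2-only region. Each is the RefSeq window of GRCm38.p6 from 250 bases before to 50 bases after the start site, 5′ to 3′ on the gene's strand. Capitals mark the AP-1 motif TGANTCA and the GC box GGGCGG, which reads CCGCCC from the other strand.
Sox11: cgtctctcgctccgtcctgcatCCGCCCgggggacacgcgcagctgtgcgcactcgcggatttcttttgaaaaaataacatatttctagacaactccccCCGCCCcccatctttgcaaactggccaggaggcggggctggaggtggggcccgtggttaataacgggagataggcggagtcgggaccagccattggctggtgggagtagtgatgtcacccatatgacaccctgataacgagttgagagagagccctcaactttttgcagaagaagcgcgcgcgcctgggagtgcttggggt
Foxa2: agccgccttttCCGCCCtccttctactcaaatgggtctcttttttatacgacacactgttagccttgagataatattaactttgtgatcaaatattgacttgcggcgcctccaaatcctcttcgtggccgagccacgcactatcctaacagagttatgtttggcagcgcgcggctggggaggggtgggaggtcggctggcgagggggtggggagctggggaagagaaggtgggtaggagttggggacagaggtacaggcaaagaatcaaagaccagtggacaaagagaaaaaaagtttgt
Klf4: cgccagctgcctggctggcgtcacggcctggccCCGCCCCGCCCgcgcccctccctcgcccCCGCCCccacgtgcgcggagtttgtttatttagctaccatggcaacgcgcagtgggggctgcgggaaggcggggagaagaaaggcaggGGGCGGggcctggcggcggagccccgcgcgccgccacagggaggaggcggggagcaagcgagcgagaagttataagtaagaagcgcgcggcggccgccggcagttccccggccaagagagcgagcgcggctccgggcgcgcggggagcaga
Cldn3: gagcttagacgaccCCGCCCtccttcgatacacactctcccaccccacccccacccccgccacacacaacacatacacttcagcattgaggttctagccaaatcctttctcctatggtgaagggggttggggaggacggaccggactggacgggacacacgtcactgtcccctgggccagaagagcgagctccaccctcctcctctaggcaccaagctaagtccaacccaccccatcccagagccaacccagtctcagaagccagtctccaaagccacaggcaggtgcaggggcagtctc
Sprr1a: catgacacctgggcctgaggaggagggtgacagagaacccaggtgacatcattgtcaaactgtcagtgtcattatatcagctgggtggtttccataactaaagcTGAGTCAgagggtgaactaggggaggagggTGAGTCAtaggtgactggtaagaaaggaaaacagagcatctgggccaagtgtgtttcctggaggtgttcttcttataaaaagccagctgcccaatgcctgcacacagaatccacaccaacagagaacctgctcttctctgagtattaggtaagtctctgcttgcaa
Egfr: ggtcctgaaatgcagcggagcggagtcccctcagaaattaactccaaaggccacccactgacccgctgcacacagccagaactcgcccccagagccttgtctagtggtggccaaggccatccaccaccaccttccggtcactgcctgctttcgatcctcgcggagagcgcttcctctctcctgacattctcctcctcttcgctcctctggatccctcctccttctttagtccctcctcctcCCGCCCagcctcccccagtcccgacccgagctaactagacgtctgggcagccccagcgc

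The windows lie at chr12:27342669-27342968 (Sox11, minus strand), chr2:148045415-148045714 (Foxa2, minus), chr4:55532426-55532725 (Klf4, minus), chr5:134985964-134986263 (Cldn3, plus), chr3:92485832-92486131 (Sprr1a, minus) and chr11:16751953-16752252 (Egfr, plus). The Sprr1a window holds 2 AP-1 motifs, no GC box and 0 CpG dinucleotides at a GC content of 48.7%. The Sox11 window holds 0 AP-1 motifs, 2 GC boxes and 21 CpG dinucleotides at 58.7% GC, and the Klf4 window 4 GC boxes and 40 CpG dinucleotides at 74.3% GC. The other windows overlapped between the sets: the SmoM2-only Egfr window holds 0 AP-1 motifs, 1 GC box and 15 CpG dinucleotides at 62.3% GC. The Embryo-only Foxa2 and Cldn3 windows hold 0 AP-1 motifs and 1 GC box each, with 13 and 9 CpG dinucleotides at 51.7% and 60.7% GC. A match of these letters is a description and does not show that a factor binds there.

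The region over the Sox11 start site (chr12:27342314-27343147) ranked 2993 in Embryo 1 and 3049 in Embryo 2, where rank 1 is the interval with the highest −log10 p-value. It was at no rank in any of the 3 SmoM2 lists or the 3 SmoM2-Sox9cKO lists, and at ranks 50471 and 62842 in WT 2 and WT 3. The Klf4 start region ranked 3527 and 3709 in Embryo, against 36218, 22357 and 21924 in SmoM2. The Cldn3 start region ranked 835 and 2456 in Embryo, against 26472, 30983 and 25829. For Klf4 and Cldn3 the interval was thus on every SmoM2 list, far down it, while for Sox11 it was missing. The Foxa2 start region ranked 9462 and 13423 in Embryo and 53896, 38773 and 53467 in SmoM2. In the other direction the Sprr1a start region ranked 6669, 1583 and 1760 in SmoM2, 15364 in Embryo 1 and at no rank in Embryo 2. The Egfr start region ranked 11934, 9289 and 11698 in SmoM2, 18586 in Embryo 1 and at no rank in Embryo 2.

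The lists differed in length, which bears on every comparison below. The whole lists held 24902 and 14255 intervals in Embryo, against 76827 to 87910 in SmoM2 and 69026 to 87910 over the 9 adult lists. The 14000 intervals kept were 56.2% and 98.2% of the Embryo lists and 15.9% to 18.2% of the SmoM2 lists. The last of them had a −log10 p-value of 8.30 and 4.05 in Embryo and 35.9, 36.7 and 52.7 in SmoM2. The limit for an open region therefore lay at a lower −log10 p-value in Embryo than in SmoM2. A rank compares positions within a library, not heights between libraries. Read depth is unknown, because no label or list states how many reads were sequenced. Age, sorting gate, transgene and list length differ between Embryo and SmoM2, the strain of Embryo is not stated, and the parts of these in any difference cannot be told apart. Whether replicates are separate animals is not stated, and p-values cover only the variation among these libraries, which may be technical. In bulk chromatin, fewer cells with an open site and less opening per cell cannot be told apart.

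**Figure D1:**
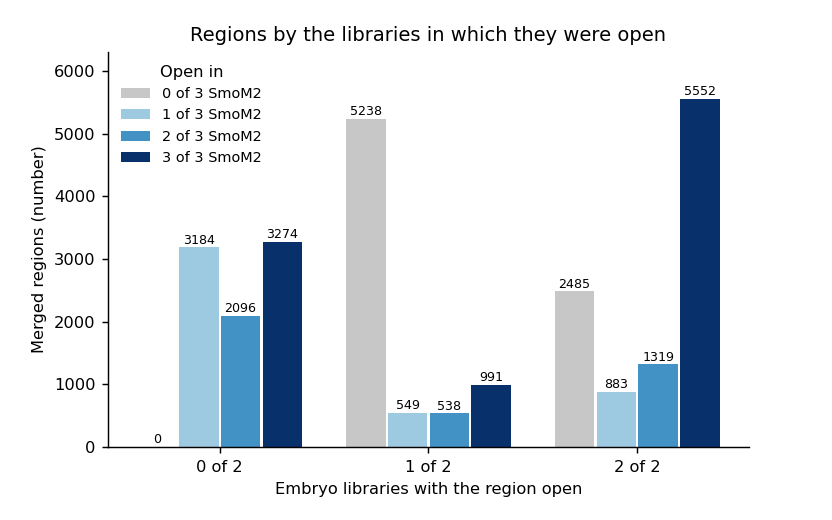
Number of merged regions (y axis) by how many of the 2 Embryo libraries (x axis) and how many of the 3 SmoM2 libraries (bar colour) had them open among the top 14000 intervals. The tallest bars are the 5552 regions open in all 5 libraries and the 5238 open in 1 Embryo library alone; Embryo-only regions number 2485 and SmoM2-only regions 3274.

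Among regions open in no SmoM2 library, fewer were open in both Embryo libraries than in a single one. Regions open in 1 Embryo library and no SmoM2 library numbered 5238, more than the 2485 open in both. Regions open in no Embryo library numbered 3184 in 1 SmoM2 library, 2096 in 2 and 3274 in all 3. When regions were chosen without Embryo 1, 47.1% of the 5335 regions then called Embryo-only were open in it, against 48.7% of all regions. Without Embryo 2 the shares were 50.8% of 4907 regions and 47.4%. An Embryo-only region chosen on one Embryo library was thus about as likely as any region, shared ones included, to be open in the other. It was more likely to be so than a SmoM2-only region. Of the 3892 and 3647 regions called SmoM2-only without Embryo 1 and Embryo 2, 15.9% and 10.2% were open in the library left out. For SmoM2 the same check rests on 2 libraries in place of 1, so its shares cannot be set against those of Embryo: 83.8%, 77.8% and 86.2% of those chosen without SmoM2 1, 2 and 3 were open in the library left out, against 50.6%, 52.0% and 52.3% of all regions. The limit of 14000 passed close to some regions. The own group's worst rank lay within the last 500 ranks for 163 Embryo-only and 221 SmoM2-only regions. The best SmoM2 rank lay within the 500 ranks after the 14000th for 80 Embryo-only regions, and the best Embryo rank did so for 29 SmoM2-only regions, a number held down by the early end of the Embryo 2 list.

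Embryo-only regions were mostly listed at low ranks in SmoM2 rather than missing. On the whole SmoM2 lists, at any rank, 84.99%, 81.3% and 82.6% of the 2485 regions were listed (83.0% ± 1.86, mean ± SD, n = 3). Their median ranks there were 32333.5, 26862 and 28230.5, against 8681 and 7896 in the Embryo lists that chose them. At the listed regions the authors' median fold enrichment overlapped between the groups, and their median −log10 p-value was higher in SmoM2. The median fold enrichment over listed regions was 5.55, 5.36 and 5.80 in SmoM2 and 5.49 and 4.01 in Embryo, and the median −log10 p-value 18.3, 21.6 and 29.8 against 13.95 and 8.79. Embryo-only thus describes a rank within each library. Which group had the stronger signal cannot be told, because read depth is unknown. The SmoM2 medians also leave out the 373, 464 and 433 regions that SmoM2 1, 2 and 3 did not list. All 3 SmoM2 lists held 1918 regions (77.2%), 2 of them held 150, 1 held 131 and none held 286 (11.5%). Those groups also differed in position: 44.4% of the 1918 lay within 1 kb of a start site, against 9.09% (26) of the 286. The best SmoM2 rank of an Embryo-only region had a median of 23937.

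**Figure D2:**
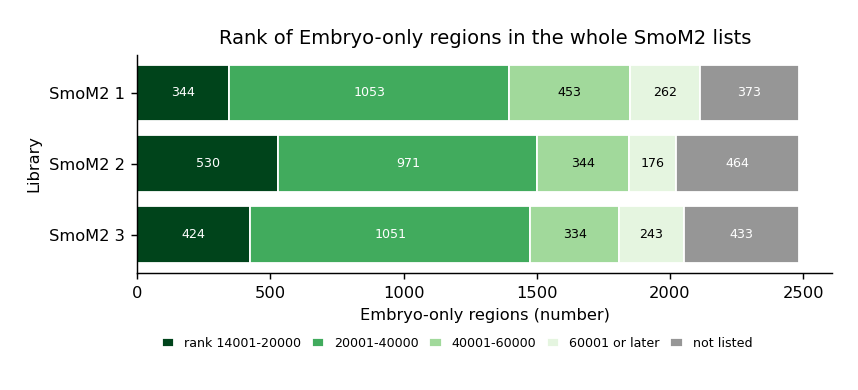
Number of the 2485 Embryo-only regions (x axis) by the rank of their best interval in each whole SmoM2 list (y axis, one bar a library). The second rank class, up to 40000, holds the most regions in each library (1053, 971 and 1051), and 373, 464 and 433 regions are not listed.

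The SmoM2-only regions were largely absent from the Embryo lists, which are short. Embryo 1 listed 12.5% of the 3274 regions at any rank and Embryo 2 listed 0.153%, and 2864 (87.5%) were in neither list. Since the list of Embryo 2 ends soon after its 14000th interval, absence from it cannot be told apart from the list's end. The same regions were mostly open in the other adult groups. In WT 72.8% ± 0.783 (mean ± SD, n = 3) were open among the top 14000 and 97.2% ± 0.508 were listed at any rank. In SmoM2-Sox9cKO the shares were 86.1% ± 0.924 and 99.8% ± 0.110. In WT 1966 of the 3274 were open in 3 of 3 libraries and 542 (16.6%) in none. Of those 542, 43.0% were open in 3 of 3 SmoM2-Sox9cKO libraries, compared with 84.8% of the 1966. Only 60 SmoM2-only regions (1.83%) were on no whole WT list. WT and SmoM2 differ in EpCAM gate as well as genotype.

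Embryo-only regions were rare among the top intervals of WT and SmoM2-Sox9cKO. WT had 7.67% ± 0.452 of them open and SmoM2-Sox9cKO 6.14% ± 0.829 (mean ± SD, n = 3 each), against 43.5% ± 1.70 and 49.6% ± 0.905 of all 26109 regions. The rule fixes the SmoM2 share at 0. WT and SmoM2-Sox9cKO had most SmoM2-only regions open, so leaving out regions open in SmoM2 lowers their shares partly by construction. All 26109 regions include those open in SmoM2. At any rank WT listed 77.7% ± 5.98 of the Embryo-only regions and SmoM2-Sox9cKO 80.6% ± 1.59. In all, 2109 (84.9%) were open in 0 of 3 WT libraries and 50 in all 3. Of the 286 regions on no SmoM2 list, 219 (76.6%) were on no WT list and 187 (65.4%) on no other adult list.

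**Figure D3:**
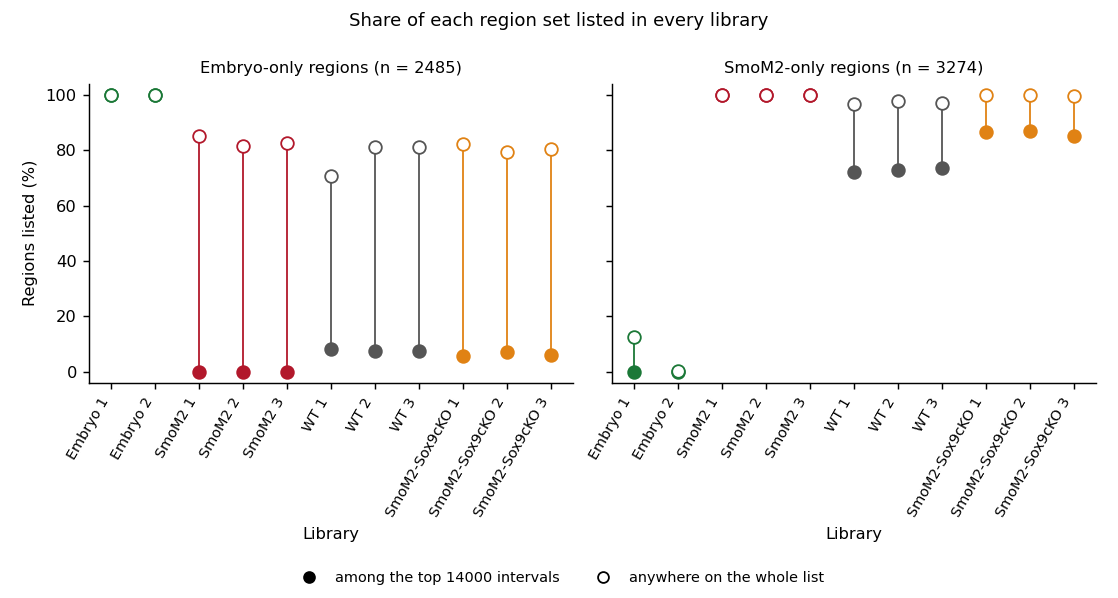
Share of the 2485 Embryo-only (left) and 3274 SmoM2-only regions (right) listed in each of the 11 libraries, in percent. Filled points count the top 14000 intervals and open points the whole list; Embryo-only regions lie between 5.51% and 8.17% in the top intervals of WT and SmoM2-Sox9cKO and between 70.7% and 84.99% on whole adult lists, while SmoM2-only regions lie between 72.0% and 86.8% and at or above 96.7% respectively.

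The sets also differed in where they lay, which the rule did not use, and in width. Within 1 kb of a RefSeq start site lay 904 Embryo-only regions (36.4%), 273 SmoM2-only regions (8.34%) and 74.9% of the shared regions, against 35.7% of all 26109. SmoM2-only regions were thus mainly distal, Embryo-only regions near the overall share and shared regions mainly promoters. Among single libraries, 57.0% and 50.8% of the top Embryo intervals lay near a start site and 40.5%, 46.8% and 45.0% of the SmoM2 ones. Median widths were 715 bp for Embryo-only, 1014 bp for SmoM2-only and 1217 bp for shared regions. The top intervals themselves had median widths of 662 and 481 bp in Embryo and 933, 1005.5 and 1049 bp in SmoM2, and merging more lists widens a region. A gene body overlapped 53.8%, 49.4% and 75.6% of them, and no protein-coding gene lay within 100 kb of 206 (8.29%), 371 (11.3%) and 58. The X chromosome held 85 Embryo-only regions (3.42%) and 8 SmoM2-only regions (0.244%), against 1.85% of all regions. The X share of the top intervals was 2.04% and 2.32% in Embryo and 0.764% to 1.14% in SmoM2, and no label states whether the animals were male or female.

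Promoter windows of the sets differed in base composition and motifs. A start-site window was assigned where the start lay in a region, giving 958 windows for Embryo-only, 259 for SmoM2-only and 5762 for shared regions, of 32585 in RefSeq. The AP-1 motif TGANTCA, bound by Fos and Jun factors, was in 54 SmoM2-only windows (20.8%), 4.49% of Embryo-only windows, 3.84% of shared windows and 7.85% of all windows. The GC box GGGCGG was in 69.0% of Embryo-only, 46.3% of SmoM2-only, 73.9% of shared and 35.9% of all windows. CpG dinucleotides had medians of 21, 12, 24 and 7 in the same order, and GC content medians of 62.3%, 56.3%, 63.0% and 53.0%. Embryo-only promoters were thus nearer to shared promoters in composition than SmoM2-only ones were. The ETS motif CCGGAAG was in 13.05% of Embryo-only, 9.27% of SmoM2-only, 23.4% of shared and 8.92% of all windows. The SOX motif AACAAT was in 5.95%, 5.41%, 3.99% and 10.6%, and the forkhead motif TGTTTAC in 2.19%, 5.79%, 2.36% and 3.67%. The GLI motif GACCACCCA was in 2 Embryo-only, 0 SmoM2-only and 11 shared windows of 83 in all. These shares describe promoters only, on both strands with overlaps allowed, since no genome sequence was used for the distal regions.

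**Figure D4:**
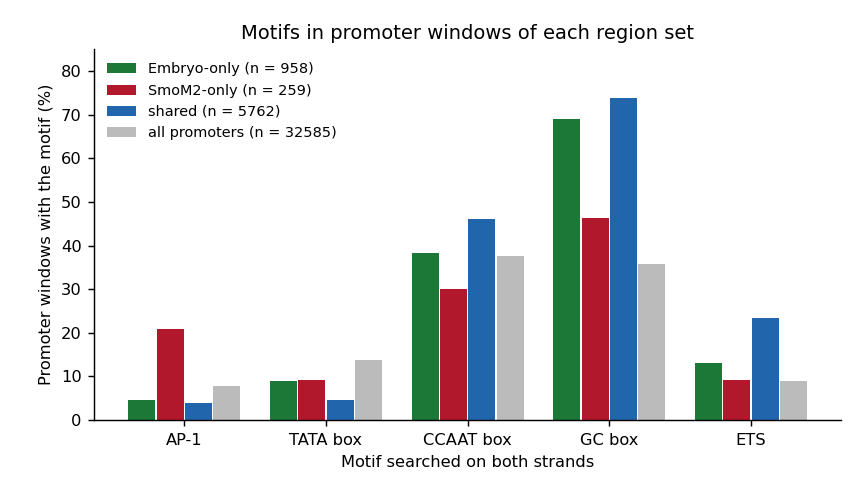
Share of 300-base promoter windows (y axis, percent) that hold each motif on either strand (x axis), for windows in Embryo-only (958), SmoM2-only (259) and shared regions (5762) and for all RefSeq windows (32585). AP-1 stands at 20.8% in SmoM2-only windows and 4.49% in Embryo-only windows, and the GC box at 46.3% and 69.0%.

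Of 664 genes in 25 lists by pathway or cell type, 33 had a start site in an Embryo-only region and 8 in a SmoM2-only region. Of the 447 with a known start site these were 7.38% and 1.79%, against 4.24% and 0.910% of all 17244 protein-coding genes with one; the genes are named as examples, and no theme was tested. The 33 included the Notch receptor Notch1 and its ligand Jag1, the BMP and activin receptors Bmpr1a, Acvr1b and Acvr2a, the inhibitory Smad6, the claudins Cldn3 and Cldn7, the endodermal factors Foxa2, Hhex and Isl1, the Myc-family factor Mycn, the AP-1 genes Junb and Fosb, and the intermediate filament gene Vim. They also included Gapdh and Eef2, which most cells use. The Gapdh start region ranked 5521 and 6082 in Embryo and 14640, 18670 and 17273 in SmoM2, so an Embryo-only promoter need not be closed in SmoM2. The Gli3 start region was closest to the limit, at ranks 13167 and 6154 against 14486, 14401 and 14100. The Junb start region lay farther off, at 8664 and 5029 against 59590, 50001 and 40933, and that of Isl1, a LIM homeodomain factor of the foregut, at 4588 and 5380 against 48612, 45920 and 70479. The 8 SmoM2-only genes were Ccnb2 and Ccnd3 (cyclins), Egfr, Fzd10 (a Wnt receptor), Sprr1a and Sprr2a1 (cornified envelope), Tgfb2 (a TGF-beta ligand) and Wnt2b (a Wnt ligand). The Tgfb2 start region ranked 9248, 4553 and 9575 in SmoM2, was at no rank in either Embryo list, and ranked 36810, 21584 and 29476 in WT.

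The best-ranked regions of both sets were short. The leading Embryo-only region, chr12:59262691-59263107, is 417 bp wide, lies 40938 bp from Fbxo33 (an F-box protein gene), ranked 46 and 40 in Embryo and was on no adult list. The next one, chr2:20899851-20900208 inside Arhgap21 (a GTPase-activating protein gene), ranked 50 and 61 in Embryo and 41572, 43778 and 46398 in SmoM2. The leading SmoM2-only region, chr6:103649055-103649293 inside Chl1 (a neural adhesion gene), is 239 bp wide. Of the 8 best-ranked SmoM2-only regions 7 were 226 to 286 bp wide, and the Chl1 region had −log10 p-values of 1676, 2432 and 1735. The lists were not compared with a list of artefact-prone sites, so whether these short intervals are such sites was not tested. It ranked 16, 13 and 18 in SmoM2, 14 and 15 in WT 2 and WT 3 and 20, 23 and 24 in SmoM2-Sox9cKO, and was on neither Embryo list nor that of WT 1. Further Embryo-only regions on no SmoM2 list were chr11:68623305-68624193 near Ccdc42 (ranks 1688 and 2542), chr17:43504077-43504929 near the protease gene Mep1a (3019 and 2574) and chr6:102564172-102564713 in Cntn3, a contactin (1538 and 4380). None of these 3 was on an adult list.

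SmoM2-only regions on no Embryo and no WT list were wider than those leaders. The first by rank was chr2:120959356-120960212 in Ubr1, a ubiquitin ligase gene. It ranked 2267, 7583 and 1771 in SmoM2 and 3139, 5048 and 22391 in SmoM2-Sox9cKO. The region chr2:46512061-46513236, with no gene within 100 kb, ranked 2101, 5008 and 2394 in SmoM2 and 5081, 3735 and 2160 in SmoM2-Sox9cKO. The region chr6:23743205-23744184 in Cadps2, a vesicle release gene, ranked 4082, 3052 and 2340 in SmoM2, and 8283, 6858 and 30842 in SmoM2-Sox9cKO. All 3 were listed in every SmoM2-Sox9cKO library as well.

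To test differences over genes, the top intervals were counted at each gene locus, taken as the protein-coding gene body nearest to the interval's midpoint within 100 kb. Loci whose Embryo and SmoM2 group means averaged 1 interval or more (6850) were fitted with limma on log2(intervals + 0.5), with all 4 groups in one fit, and p-values were adjusted by Benjamini-Hochberg over all of them. Of these, 751 had an adjusted p under 0.05, with 230 (3.36%) higher in Embryo and 521 (7.61%) higher in SmoM2. A locus at 0 has no interval among the top 14000 of a library and may have some farther down its list. Loci with one group at 0 in all libraries passed the filter through the other group alone, which fixed their direction. Counts of calls per gene list below describe its loci and are no test of the list. The groups did not overlap at any of the 751, nor at 21.0% of all loci tested. At 130 of the 230 Embryo loci all SmoM2 libraries were at 0, and at 118 of the 521 SmoM2 loci both Embryo libraries were. WT had at least 1 interval in every library at 507 of the 521 SmoM2 loci (97.3%) and at 96 of the 230 Embryo loci. Interval counts are small whole numbers, and at 312 of the 751 loci neither Embryo nor SmoM2 had any spread between libraries. At 170 of the 751 none of the 4 groups in the fit had any, which makes p-values very small. The group means differed by 2 or more intervals at 508 of the 751. The split between directions depends on equal list lengths. With the whole lists, which favour SmoM2, 41 loci were higher in Embryo and 9057 in SmoM2, and with whole lists scaled to the assigned intervals of each library 6163 and 1993. The scaled setting was chosen after seeing the data.

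Markers of other cell types held intervals in both groups, with few at immune and erythroid markers. The fibroblast, endothelial and lung and trachea lists had 18, 16 and 12 genes. For scale, the 26 housekeeping genes held 22 to 25 intervals in Embryo and 17 to 23 in SmoM2. Summed over the list, fibroblast markers had 8 to 11 intervals in Embryo libraries and 7 to 8 in SmoM2, muscle markers 2 to 4 in both, and endothelial markers 7 and 7 to 11. Neural and neural crest markers had 1 to 5 and 4 to 6, immune markers 1 to 2 in both, erythroid markers 2 and 1 to 2, and lung and trachea markers 7 and 6 to 8. Ptprc, Myh11, Nkx2-1, Sftpc and Col1a2 were at 0 in all 11 libraries. Of the 13 loci of these marker lists that were tested, Pecam1, an endothelial adhesion gene, passed. It held 0 and 0 intervals in Embryo and 3, 1 and 3 in SmoM2 (adjusted p = 0.00835). Sox10, a neural crest factor, was at 0 and 0 in Embryo and at 1 in each of the 9 adult libraries. Other markers went the other way, at 0 in all 9 adult libraries and with too few intervals to be tested. Among them were Sox17 of the endothelial list (1 and 2 intervals in Embryo) and Vim, Itgam, Sftpb and Muc5b (1 and 1 each). What part other cell types had in the results was not tested. Krt8 and Krt5, which define the reporter and the transgene, could not check the labels, since Krt8 had 0 and 1 intervals in Embryo and 0 in SmoM2 and Krt5 was at 0 in all 11 libraries. Krt14 was at 0 in both groups. Epcam held 3 and 4 intervals in Embryo and 3, 3 and 4 in SmoM2.

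**Figure D5:**
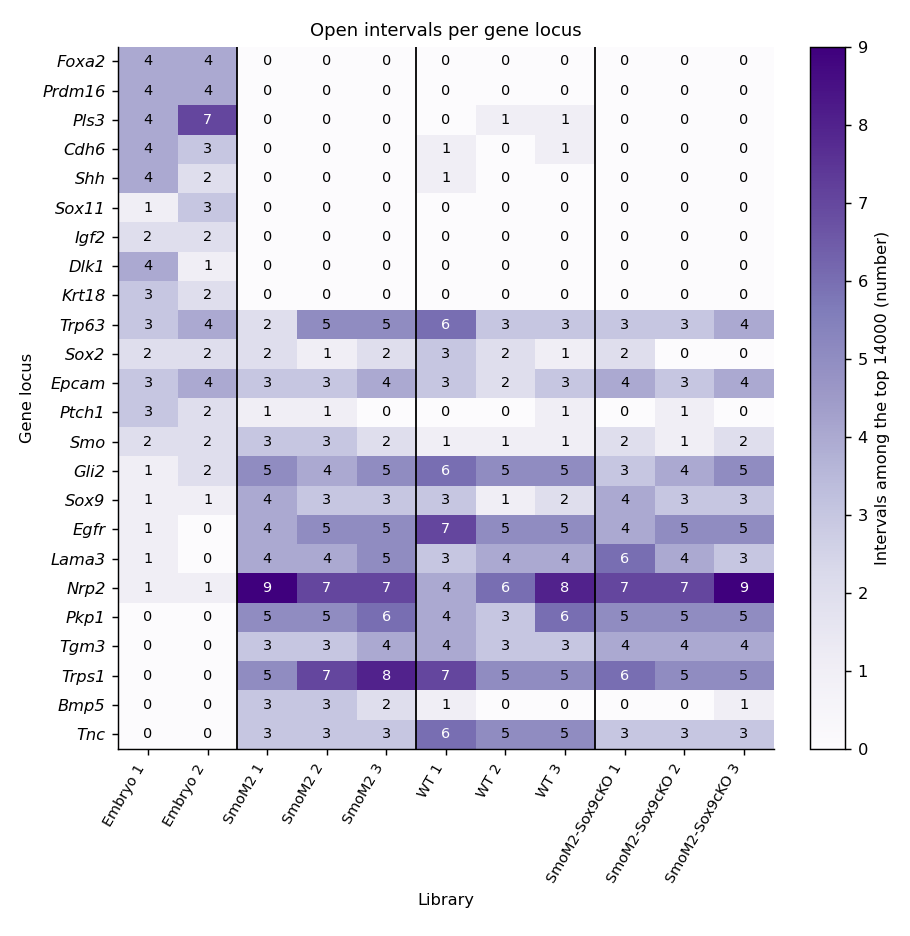
Number of intervals among the top 14000 at 24 gene loci (rows) in each of the 11 libraries (columns); vertical lines separate the groups and the colour scale runs from 0 to 9. Foxa2 to Krt18 hold intervals in both Embryo libraries and none in SmoM2, Trp63 to Smo overlap or did not pass the test, and Gli2 to Tnc hold more in every SmoM2 library.

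Among Hedgehog genes, the ligand and a transcriptional effector went in opposite directions. The Shh locus held 4 and 2 intervals in Embryo and held 0 in all 3 SmoM2 libraries (adjusted p = 0.00896), with 1 interval in 1 WT library. Without Embryo 1 that call was lost (adjusted p = 0.0534). The Gli2 locus, the main activator downstream of Smoothened, held 1 and 2 intervals in Embryo and 5, 4 and 5 in SmoM2, a log2 difference, Embryo minus SmoM2, of -1.41 ± 0.26 (SE, adjusted p = 0.0103), and 6, 5 and 5 in WT. Of 12 Hedgehog loci tested, those 2 passed (1 in each direction) and 10 did not, against 3.36% of all loci higher in Embryo and 7.61% in SmoM2. The median log2 difference of the 12 was -0.08, against 0.00 over all loci tested.

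The receptor Ptch1 held 3 and 2 intervals in Embryo and 1, 1 and 0 in SmoM2 (adjusted p = 0.335), so the groups did not overlap but the test was not passed. Counting only the 5000 best intervals more than 1 kb from a gene end, Ptch1 had means of 2.5 in Embryo and 0.333 in SmoM2, and passed (adjusted p = 0.0138). Gli1 held 1 and 1 intervals in Embryo and 0 in all adult libraries, too few to be tested. Its Embryo-only region, chr10:127338950-127339515 inside the gene body, ranked 8817 and 3878 in Embryo and 24487, 32882 and 31858 in SmoM2. Smo itself held 2 and 2 against 3, 3 and 2 (adjusted p = 0.639), and Hhip was at 0 in all libraries. Of the 60 regions at loci of this list 9 were Embryo-only and 8 (13.3%) SmoM2-only, against 9.44% and 12.0% over all genes.

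The foregut endoderm factor Foxa2 was higher in Embryo. It held 4 and 4 intervals in Embryo and held 0 in all 9 adult libraries (adjusted p = 2.67e-11, with no spread within groups). Of 16 loci of foregut factors tested, Foxa2 was higher in Embryo, Sox9 in SmoM2 and 14 did not pass, with a median log2 difference of -0.31. Sox9, a progenitor factor, held 1 and 1 intervals in Embryo and 4, 3 and 3 in SmoM2, a log2 difference of -1.34 ± 0.32 (SE, adjusted p = 0.0385), and 3, 1 and 2 in WT. The Sox9 call was lost when any 1 of the 5 libraries was left out (adjusted p = 0.0824 to 0.151). Foxa1, a related pioneer factor, held 2 and 0 against 2, 2 and 2 (adjusted p = 0.336). Sox2, which specifies esophagus in the foregut, held 2 and 2 against 2, 1 and 2 (adjusted p = 1), and Klf4 2 and 1 against 3, 2 and 2 (adjusted p = 0.878).

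Among genes of embryonic growth, which tumors often re-express, every call was toward Embryo. Of 10 such loci tested, 4 were higher in Embryo (Igf2, Dlk1, Sox11 and Hmga1), 0 were higher in SmoM2 and 6 did not pass, against 3.36% and 7.61% of all loci, and the median log2 difference was 1.20. Of the 48 regions at these loci, 16 (33.3%) were Embryo-only and 2 (4.17%) SmoM2-only, against 9.44% and 12.0% over all genes. Igf2, Dlk1 and Sox11 entered the test through their Embryo intervals alone, and the region shares use the values that chose the sets. These numbers thus describe the list and do not test it. Igf2, a fetal growth factor, held 2 and 2 intervals in Embryo and held 0 in all adult libraries (adjusted p = 1.71e-07). Dlk1, a membrane protein of fetal progenitors, held 4 and 1 (adjusted p = 0.0059) and Sox11 held 1 and 3 (adjusted p = 0.00248), both at 0 in all adult libraries. These 3 loci thus set both Embryo libraries apart from all 9 adult ones. Hmga1, a chromatin architectural protein gene, held 2 and 2 against 1 in each of the 9 adult libraries, a difference of a single interval. Igf2bp3, an RNA-binding protein gene of fetal tissue, held 4 and 2 against 1, 0 and 0 (adjusted p = 0.0744), and Hmga2 3 and 1 against 2, 0 and 1 (adjusted p = 0.888). Lin28b, a blocker of let-7 miRNA maturation, held 2 and 1 against 0 in all adult libraries and was not tested. Its Embryo-only region at chr10:45522407-45525327, 37553 bp from the gene body, ranked 10752 and 2312 in Embryo and was on no adult list.

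Among Sox genes, 8 loci were tested, of which Sox11 was higher in Embryo, Sox9 in SmoM2 and 6 did not pass. Sox5 held 6 and 3 intervals against 0, 1 and 1 (adjusted p = 0.0931) and Sox12, another SoxC factor, 2 and 3 against 0, 1 and 1 (adjusted p = 0.335). Counting distal intervals only, Sox5 had means of 4.0 and 0.333 and passed (adjusted p = 0.0356).

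Among basal keratinocyte genes every call was toward SmoM2. Of 14 loci tested, 5 were higher in SmoM2, 0 in Embryo and 9 did not pass, with a median log2 difference of -0.51. Over all loci 7.61% were higher in SmoM2, and 521 of all 751 calls went that way. Summed over the 27 genes, intervals numbered 25 in each Embryo library, 44 to 55 in SmoM2 and 46 to 57 in WT. Pkp1, a desmosome plaque protein, held 5, 5 and 6 intervals in SmoM2, 4, 3 and 6 in WT and held 0 in both Embryo libraries (adjusted p = 1.83e-05). Egfr held 1 and 0 against 4, 5 and 5, a log2 difference of -2.57 ± 0.41 (SE, adjusted p = 0.00577). Lama3, a chain of the basement membrane laminin, held 1 and 0 against 4, 4 and 5 (-2.47 ± 0.45, adjusted p = 0.0106). WT overlapped SmoM2 at all 3 loci. At Egfr, distal intervals alone did not pass (adjusted p = 0.0654). The call at the desmosomal cadherin Dsg3, with 0 and 0 against 2, 2 and 3 (adjusted p = 0.0335), was lost without any 1 of the 5 libraries (0.0776 to 0.136). Ngfr, a neurotrophin receptor of basal cells, held 0 and 0 against 3, 1 and 3 (adjusted p = 0.0109), and its call was lost without either Embryo library (0.0579 at most).

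Trp63, the master regulator of stratified epithelia, was open in both groups but at different places. It held 3 and 4 intervals in Embryo and 2, 5 and 5 in SmoM2 (adjusted p = 1). Inside the gene, the region chr16:25774609-25775321 ranked 7894 and 7722 in Embryo, 37673, 56481 and 45115 in SmoM2 and was on no WT list. The region chr16:25849812-25850299, also intragenic, ranked 11213 and 13752 in Embryo and 70056, 55564 and 63492 in SmoM2. Outside the gene body by 59278 bp, the region chr16:25623935-25625034 ranked 4808, 5029 and 7617 in SmoM2, 2422, 628 and 872 in WT, and was on neither Embryo list. In all, the locus had 3 Embryo-only regions, 1 SmoM2-only region and 0 shared ones. Similar numbers of intervals at Trp63 thus came largely from different intervals, and 1 intragenic region (chr16:25779795-25780574) was open in Embryo 2 and all 3 SmoM2 libraries.

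Of 14 squamous differentiation loci, 3 were higher in SmoM2, 0 in Embryo and 11 did not pass (median log2 difference -0.42). Tgm3, a transglutaminase of the cornified envelope, held 3, 3 and 4 intervals in SmoM2 and 4, 3 and 3 in WT, and held 0 in both Embryo libraries (adjusted p = 2.95e-06). The desmocollins Dsc1 and Dsc2 held 0 and 0 in Embryo, with 2, 2 and 3 (adjusted p = 6.36e-05) and 2, 3 and 2 (adjusted p = 0.0366) in SmoM2. The Dsc2 call was lost without any 1 of the 5 libraries (0.0866 to 0.148). Ppl, which encodes periplakin, went the other way with 2 and 2 against 1, 0 and 0 (adjusted p = 0.0572). Flg2, the filaggrin 2 gene, lies outside this list and was higher in Embryo, as given below.

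Columnar epithelium genes gave 1 locus in each direction of 6 tested. Krt18, the partner of Krt8 in simple epithelium, held 3 and 2 intervals in Embryo and held 0 in all 9 adult libraries (adjusted p = 3.7e-06). Its intervals came from different places in Embryo 1 and 2, and no region at the locus was Embryo-only by the rule. Cdh17, a cadherin of intestinal epithelium, held 0 and 0 against 2, 2 and 2 (adjusted p = 0.000154). Summed over the 32 genes, intervals numbered 23 to 24 in Embryo, 9 to 14 in SmoM2 and 6 to 10 in WT.

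Growth factor pathways gave calls in both directions. Fgf9, a ligand of the FGF family, held 3 and 2 intervals in Embryo and held 0 in all adult libraries (adjusted p = 3.7e-06), while Egfr and Ereg, the epiregulin gene, were higher in SmoM2. Of 17 FGF and ErbB loci tested, 1 was higher in Embryo and 2 in SmoM2, against 3.36% and 7.61% of all loci. Ereg held 1 and 1 against 2, 2 and 2. In the BMP and TGF-beta pathway 0 loci were higher in Embryo, 3 in SmoM2 and 23 did not pass. Tgfbr2, the type II TGF-beta receptor, held 1 and 1 against 4, 4 and 4 (-1.58 ± 0.24, SE, adjusted p = 0.00386). Bmp5, a BMP ligand, held 0 and 0 against 3, 3 and 2 (adjusted p = 0.036), and 1, 0 and 0 in WT and 0, 0 and 1 in SmoM2-Sox9cKO. At Bmp5 every SmoM2 library thus stood above every WT library, but the call was lost without any 1 of the 5 libraries (0.0729 to 0.145). Bmp7 held 3 and 2 against 6, 4 and 7 (adjusted p = 0.0326), lost without Embryo 2, SmoM2 1 or SmoM2 3 (0.197 at most).

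In the Notch pathway 1 of 17 loci passed. Notch1 held 2 and 2 intervals against 0, 0 and 0 (adjusted p = 0.0118), both of its regions being Embryo-only, and the call was lost without either Embryo library (0.0589 at most). Rbpj, the DNA-binding partner of Notch, held 4 and 3 against 1, 2 and 2 (adjusted p = 0.114). In the Wnt pathway 1 of 24 passed. Lef1, a TCF/LEF factor, held 1 and 1 against 3, 2 and 4 (adjusted p = 0.0202), and the call was lost without Embryo 1, Embryo 2 or SmoM2 1 (0.0906 at most). Rnf43, a ubiquitin ligase that removes Wnt receptors, held 5 and 4 against 1, 2 and 1 (adjusted p = 0.316). Its distal intervals had means of 3.0 and 0 and passed (adjusted p = 2.44e-05).

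AP-1 and stress response factors were split. Of 24 loci tested, 2 were higher in Embryo (Junb and Ier2), 5 in SmoM2 (Cebpb, Klf6, Maf, Runx2 and Runx3) and 17 did not pass. Junb, an AP-1 subunit, held 2 and 2 intervals in Embryo and held 0 in all adult libraries (adjusted p = 1.71e-07), although its start region was farther down every SmoM2 list. Ier2, an immediate early gene, held 2 and 2 against 1 in each adult library. Fosb, another AP-1 subunit, held 5 and 4 against 1, 0 and 2 (adjusted p = 0.17), and 4 of its 6 regions were Embryo-only. In the other direction Cebpb held 1 and 0 against 3, 4 and 3 (adjusted p = 0.0171, lost without SmoM2 2 at 0.0578), and Runx3 0 and 0 against 2, 2 and 2 (adjusted p = 0.000154). Runx2 and Klf6 (adjusted p = 0.0362 and 0.0336) each lost the call without Embryo 2 or without any 1 SmoM2 library (0.107 and 0.197 at most).

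Among matrix and guidance genes most calls were toward SmoM2, as were 521 of the 751 calls over all loci. Of 11 extracellular matrix loci tested, 4 were higher in SmoM2 (Tnc, Lama3, Lamc1 and Itgb6) and 0 in Embryo, with a median log2 difference of -0.49, and 20 of their list's 62 regions (32.3%) were SmoM2-only and 5 (8.06%) Embryo-only, against 12.0% and 9.44% over all genes. Tnc, the matrix protein tenascin C, held 0 and 0 intervals in Embryo, 3, 3 and 3 in SmoM2 and 6, 5 and 5 in WT (adjusted p = 2.1e-08). Lamc1, a laminin chain, held 1 and 1 against 4, 5 and 5 (-1.78 ± 0.32, SE, adjusted p = 0.0103), lost without Embryo 2 (0.0551). Itgb6, an epithelial integrin, held 2 and 1 against 3, 5 and 5 (adjusted p = 0.0205), lost without Embryo 2, SmoM2 2 or SmoM2 3 (0.119 at most). Of 20 axon guidance loci, 4 were higher in SmoM2, 1 in Embryo and 15 did not pass. Nrp2, a semaphorin and VEGF receptor, held 1 and 1 against 9, 7 and 7 (-2.44 ± 0.26, SE, adjusted p = 0.000518), and 4, 6 and 8 in WT. Ntn4, a netrin, held 0 and 0 against 3, 3 and 3 and was at 2 in each WT library. Epha3, an ephrin receptor, held 2 and 3 intervals in Embryo and held 0 in all adult libraries (adjusted p = 3.7e-06). Sema3e, with 0 and 0 against 4, 5 and 2 (adjusted p = 0.0487), lost the call without any 1 of the 5 libraries (0.0695 to 0.182).

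Cell cycle and housekeeping genes gave few calls. Of 29 cell cycle loci 1 passed: Myc held 1 and 1 intervals against 4, 2 and 5 (adjusted p = 0.0205), and 6, 5 and 6 in WT, with the call lost without Embryo 1, Embryo 2 or SmoM2 1 (0.0921 at most). Counting distal intervals only, Myc had means of 0 and 3.0 (adjusted p = 0.00032). Of 13 housekeeping loci, 0 passed by limma and 0 had an unadjusted p under 0.05. Among 14 antigen presentation and interferon loci, the chemokine gene Ccl20 (0 and 0 against 3, 4 and 3, adjusted p = 0.000181) and the alarmin gene Il33 (0 and 0 against 3, 3 and 3, adjusted p = 0.000191) were higher in SmoM2, and 0 in Embryo. The single Hox locus tested, Hoxa3, held 2 and 1 against 1, 0 and 1 (adjusted p = 0.364).

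Outside the lists, loci with large differences toward Embryo included Pls3 (plastin 3, an actin bundler on the X chromosome), with 4 and 7 intervals against 0 in SmoM2 (adjusted p = 0.00208). Prdm16, a chromatin regulator, held 4 and 4 and was at 0 in all 9 adult libraries (adjusted p = 2.67e-11). Cdh6, a type II cadherin, held 4 and 3 against 0 in SmoM2 (adjusted p = 0.00381), and 1, 0 and 1 in WT. It had 3 Embryo-only regions, of which chr15:13002795-13004197 and chr15:13046839-13047514 were on no WT list. The region chr15:13236804-13237925 was on every adult list. It ranked 7490 and 13723 in Embryo, 58871, 43625 and 54313 in SmoM2 and 17750 in WT 1. Abr held 6 and 4 against 0 (adjusted p = 0.0106), a call lost without Embryo 1 (0.0616), and Pde1c 4 and 3 against 0 (adjusted p = 1.57e-07). Apba2 held 5 and 5 against 1, 0 and 0 (adjusted p = 0.00381). Flg2, the filaggrin 2 gene, was not on the squamous differentiation list and held 2 and 6 against 0 (adjusted p = 0.000642). Speer4d and Speer4c, with 3 and 11 and 1 and 10 intervals in Embryo and 0 in all adult libraries (adjusted p = 0.000715 and 0.0273), belong to a family of near-identical copies, so where their reads came from is uncertain, and the Speer4c call was lost without any 1 SmoM2 library (0.0798 at most). Hrh1, a histamine receptor gene chosen after its values were seen because it held 9 Embryo-only regions, the most of any gene, had 11 and 15 intervals in Embryo. It had 2, 1 and 2 in SmoM2 and 4, 1 and 6 in WT (log2 difference 2.66 ± 0.63, SE, adjusted p = 0.0351). The nearest of these 9 regions lay 13921 bp outside the gene body, so all were assigned to Hrh1 by nearness. The Embryo-only region chr6:114547891-114548310, for example, 64803 bp outside it, ranked 4294 and 1120 in Embryo and 14594, 21841 and 30431 in SmoM2. Fold enrichment there was 4.18 and 4.17 in Embryo and 6.05, 5.48 and 4.36 in SmoM2. This region thus ranked higher in Embryo without a higher fold enrichment there.

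In the other direction, Trps1, a GATA-type repressor, held 5, 7 and 8 intervals in SmoM2, 7, 5 and 5 in WT and held 0 in both Embryo libraries (adjusted p = 6.47e-06). It had 5 SmoM2-only regions, the first by rank at chr15:50942347-50943021, with ranks of 5472, 2243 and 3508 in SmoM2 and of 2071, 2305 and 399 in WT. Ofcc1 held 5, 6 and 6 (adjusted p = 3.55e-06), Serp2 3, 6 and 7 (adjusted p = 0.000137) and Pebp4 6, 3 and 5 (adjusted p = 0.000583), each with 0 in both Embryo libraries. Cd109, a GPI-anchored surface protein of keratinocytes, held 4, 5 and 4 (adjusted p = 0.000258), and Asb7 and Sppl3 4, 4 and 4 each (adjusted p = 4.18e-05 and 0.000642). Asb7 had 2, 1 and 2 intervals in WT and Sppl3 2, 1 and 1, so at these 2 loci every SmoM2 library stood above every WT library. Kcnq5, a potassium channel gene, held 4, 7 and 3 (adjusted p = 0.0154), lost without Embryo 1, Embryo 2 or SmoM2 2 (0.0738 at most). Lpp, a focal adhesion gene chosen after its values were seen, had 7 SmoM2-only regions and held 4 and 4 intervals in Embryo against 11, 11 and 13 in SmoM2 (-1.43 ± 0.20, SE, adjusted p = 0.00267).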

How the data were processed

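The 11 ATAC-seq libraries hold sorted mouse esophageal cells, and 5 were compared. The submitters' processing notes name Trimmomatic, Bowtie2, Picard, MACS2 and deepTools and the build GRCm38/mm10, without versions, thresholds or order. The authors deposited one list a library, with a fold enrichment ratio (column 7), −log10 p-values and −log10 q-values (columns 8 and 9), a score (column 5) and the summit position (column 10).

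Repeated intervals were collapsed, and chromosomes 1 to 19 and X kept. Genes are 21631 protein-coding RefSeq genes (GRCm38.p6), and start sites, known for 17274 of them (79.9%), come from RefSeq promoter windows. Differences were tested with limma 3.58.1 (variance trend on, robust off) in R 4.3.3, and regions were handled with pandas 2.3.3 in Python 3.11.15. Region sets chosen by occupancy were described without a test. On data simulated for Embryo against SmoM2 over 5328 loci, limma called 6 of 99 loci changed 4-fold, 53 of 100 changed 8-fold and 1 of 5129 unchanged ones, so smaller changes can go uncalled. The simulated counts were drawn from a Poisson distribution. In the data, 170 of the 751 called loci had no spread in any of the 4 groups, so these rates may not carry over.

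Named loci are up to 10 a direction with the largest log2 difference among calls without overlap, with predicted genes that have no name set aside. To these were added, from each of 25 gene lists, up to 4 tested members with the largest difference, and a set of Hedgehog, foregut and epithelial genes. Named regions are up to 8 a set by median rank, also among those absent from the other group. Other called list members, regions also absent from WT, and single regions at a locus were named after their values were seen. A locus that the rule would name is not reported here. No log2 difference is printed where a group is at 0 in all libraries. Members, lists and rules were chosen with earlier results of these data known. Alternatives covered list length, ranking by fold enrichment, autosomes, distal intervals, windows of 501 bp around the summit, pseudocounts (1 and 0.25 in place of 0.5), filters, scaling, a 20 kb reach, the 5 libraries by themselves, blocking on replicate number, and omitting each library in turn. Omitting intervals over 10 kb, whole lists with scaling, and limma without the variance trend were added after the data were seen.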

Additional observations from a re-analysis of the deposited data

How the results depend on the processing

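Set sizes followed list length. With the top 10000 intervals SmoM2-only regions numbered 2067, and loci higher in Embryo and SmoM2 numbered 98 and 262. With the top 5000 the counts were 1081 Embryo-only, 845 SmoM2-only and 1523 shared regions, and 27 and 50 loci. With whole lists they were 705, 45388 and 11016 regions, and 41 and 9057 loci (6163 and 1993 when scaled, a setting added after the data were seen). Distal intervals alone gave 1503, 1808 and 782 regions, and 122 and 249 loci. With them, the calls at Lef1, Bmp7, Itgb6, Egfr and Ngfr were lost (limma adjusted p = 0.894, 0.882, 0.136, 0.0654 and 0.0564). The other named calls that could be tested there passed. Ranking by fold enrichment gave 4111 Embryo-only regions, and accepting 2 of 3 SmoM2 libraries gave 5370 SmoM2-only regions. A mean of at least 0.5 intervals gave 1153 and 1108 loci, a mean of at least 2 gave 65 and 306, and a 20 kb reach gave 331 loci higher in SmoM2. Leaving out a library gave 2679 to 5335 Embryo-only regions, 3647 to 4209 SmoM2-only and 5783 to 6408 shared regions, and 212 to 392 and 418 to 471 loci; without Embryo 1 the Embryo counts were 5335 regions and 392 loci, and without Embryo 2 there were 4907 regions. Fewer lists to meet raises such counts by construction. Windows around the summit (regions only), autosomes, other pseudocounts and limma without the variance trend left each of these counts that they touch within 1.5 times. Ranking by fold enrichment kept 99 of the 230 Embryo calls and 223 of the 521 SmoM2 calls, the same loci. A fit of the 5 compared libraries without the other 6 called 255 and 448 loci, with 160 and 288 of the same calls, and counting merged regions in these 5 kept 149 and 291.

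Over 53 named called genes, 879 of 1016 alternative values kept the call, 125 lost it and 12 changed sign. Of the 62 named calls, 43 held in every fit that left out a library and 5 held in none of them. On whole unscaled lists, where the median locus moved by -1.46, the log2 difference turned at Pls3 (-1.05), Abr (-0.66), Prdm16 (-0.45), Pde1c (-1.15), Cdh6 (-0.24), Shh (-1.21), Dlk1 (-0.29), Igf2 (-0.30), Junb (-0.24), Notch1 (-1.69) and Fgf9 (-0.88). Of these only Notch1 lay below that median. Ranked by fold enrichment, Itgb6 turned to 0.37, and the cause was not tested. The replicate block called 205 and 409 loci. Same-numbered samples of Embryo and SmoM2 deviated from their group means with correlations of 0.0115 and 0.0178. The deviations of Embryo 1 and Embryo 2 mirror each other by construction, so these values cannot show whether same-numbered samples share a batch. Depth in reads is unknown, and the shortest Embryo list limits how many intervals can be compared.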
